A study of Mus musculus and Homo sapiens with 11 samples.

Results

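The genes described here are those that cells use to show peptides to T cells on major histocompatibility complex (MHC) molecules. They are the 44 listed genes whose symbols begin with H2-, the mouse MHC, together with 14 genes named one by one: B2m, Tap1, Tap2, Tapbp, Tapbpl, Psmb8, Psmb9, Psmb10, Psme1, Psme2, Nlrc5, Erap1, Ciita and Cd74. That makes 58 of the 24062 genes in the deposited mouse table, of which 33 were expressed highly enough to be tested.

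RNA was sequenced from cultured MMTV-ErbB2 cells, a mouse mammary tumour line named for the mouse mammary tumour virus promoter and the receptor tyrosine kinase ErbB2, also called HER2. The derivative labelled MMTV-ErbB2-BrM 2a and called a brain metastatic derivative (BrM below) gave 3 libraries, and the parental line gave 3. Both carry the same line name and breast cancer cell type in the labels, which give no strain or MHC haplotype for the line and do not say whether the derivative is a single clone. The series also holds 5 libraries of the human line HCC1954, which were not analysed here.

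MHC class I molecules pair a heavy chain with beta-2 microglobulin and carry peptides cut in the cytosol by the proteasome, whose immunoproteasome form swaps in the inducible subunits Psmb8, Psmb9 and Psmb10. The peptides are pumped into the endoplasmic reticulum by the transporter made of Tap1 and Tap2, trimmed by the aminopeptidase Erap1 and loaded with the help of tapasin, the product of Tapbp. Class II molecules carry peptides from endosomes and belong mainly to professional antigen-presenting cells; interferon gamma raises both pathways, through the transactivators Nlrc5 for class I and Ciita for class II.

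Reads assigned to genes numbered 29877087, 38512988 and 39106969 in BrM replicates 1, 2 and 3, and 39304974, 46683735 and 40140819 in parental replicates 1, 2 and 3. BrM replicates 2 and 3 were 2-fold or more apart at 220 of the 13821 tested genes and at 0 of the tested members, whereas BrM replicate 1 was so far from them at 3614 and 3654 genes and at 13 and 12 members. Between parental libraries these counts were 976 to 1683 genes and 3 to 11 members. BrM replicates 2 and 3 still differed by more than counting noise, with a median chi-square of 1.47 per gene, against 9.52 to 42.3 for the other pairs of libraries within a group. Separate cultures are not stated for the libraries of either group, so the spread behind each p-value may be technical. Neither the library kits (TruSeq RNA v2 or NEBNext Ultra) nor the media (DMEM or RPMI) are assigned to libraries, so the effect of kit or medium and that of the cell line cannot be told apart. The epithelial marker list, which includes Erbb2, was high in both groups. Its summed level was 263946, 228727 and 218485 in BrM replicates and 150385, 148777 and 158484 in parental replicates. Of its 9 tested genes 5 rose, 1 fell and 3 did not pass, beside 12.2% higher and 15.8% lower over all tested genes. Krt8 and Krt18 were among those that rose, with log2 fold changes of 1.33 and 1.18 (limma adjusted p = 0.00660 and 0.00186). Cdh1 fell, with -0.63 (limma adjusted p = 0.0113), and Epcam did not pass, with -0.20. In a bulk sample, fewer cells that express a gene and less of its RNA per cell cannot be told apart.

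Where a gene of the class I pathway passed the test, its messenger RNA was lower in BrM. Of the 33 tested members, 8 fell, 0 rose and 25 did not pass the test at an adjusted p of 0.05 (limma, Benjamini-Hochberg over all tested genes). The 8 were the heavy chain genes H2-K1, H2-Q2, H2-Q4 and H2-T23, the light chain gene B2m, and Tapbp, Psme2 and Erap1, with folds of 1.75 to 2.82. They make up 24.2% of the tested members, while 15.8% of all tested genes were called lower, 12.2% higher and 28.1% in either direction. The median log2 fold change was -0.81 over the tested members and -0.05 over all tested genes. The sign was negative for 29 members and positive for 4, that is 87.9% negative, beside 52.8% over all tested genes. In 12 members, or 36.4%, every BrM library was below every parental library, against 25.7% of all tested genes. At an unadjusted p under 0.05 there were 17 members, or 51.5%, beside 40.9% of all tested genes, and 1 of the 17 was higher in BrM. No member was called higher by edgeR (12.3% of all tested genes), while DESeq2 called 2, H2-T24 and Cd74 (17.4% of all tested genes).

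The size of the difference depended on which libraries were set against each other. Relative to the parental mean, the median member stood at -0.43, -0.97 and -1.0 log2 units in BrM replicates 1, 2 and 3, and at 0.27, 0.17 and -0.49 in parental replicates 1, 2 and 3. BrM replicate 1 was the highest BrM library for 25 of the 33 members, and parental replicate 3 was the lowest parental library for 30. Without BrM replicate 1, 20 members were called lower, with 26.4% of all tested genes. With BrM replicate 2, BrM replicate 3, parental replicate 1 or parental replicate 2 left out, 2, 3, 2 and 1 members were called lower, with 9.26%, 9.97%, 10% and 8.99% of all tested genes. Without parental replicate 3 there were 9, with 12.3%.

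**Figure D1:**
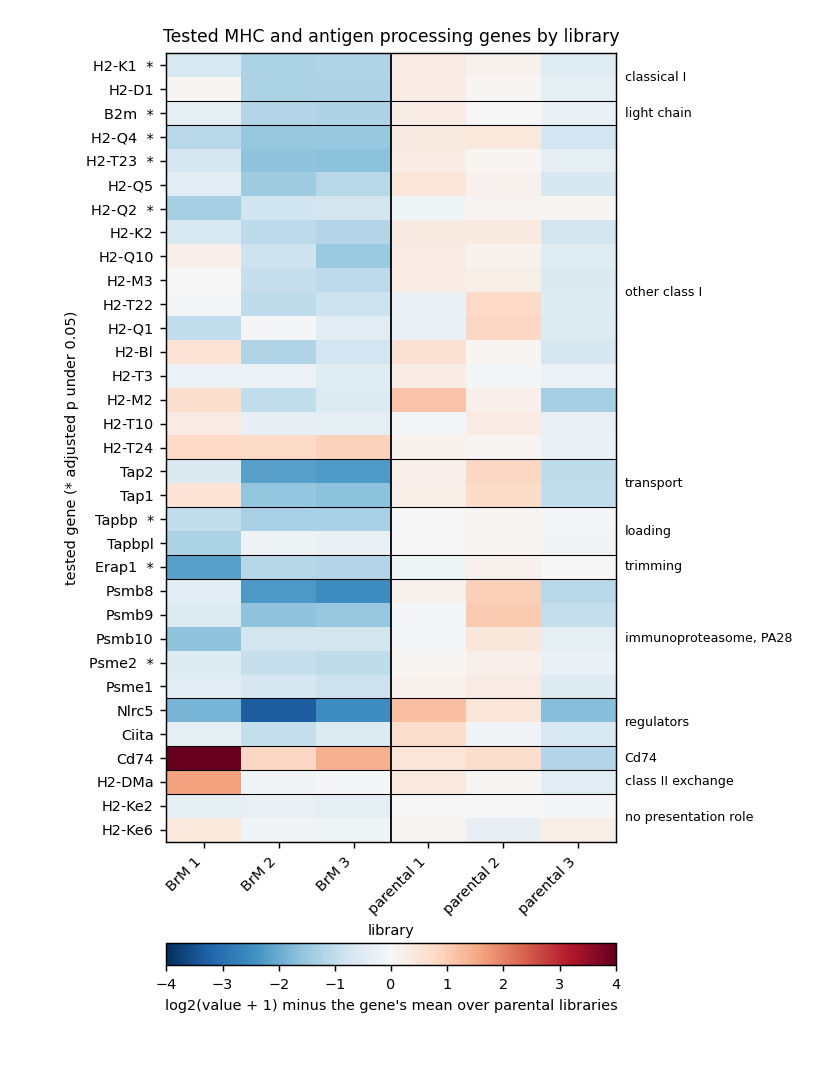
Heat map of the 33 tested members (rows, grouped by role, asterisks where the adjusted p was under 0.05) in the 3 BrM and 3 parental libraries (columns), coloured by log2(value + 1) minus the gene's parental mean. Most rows are blue in BrM replicates 2 and 3 and paler in BrM replicate 1 and parental replicate 3, while Cd74 and H2-T24 are red in BrM.

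Sequences upstream of the class I genes show what several of them share. In mouse class I promoters, a binding site for NF-kB and an interferon-stimulated response element (ISRE), bound by interferon regulatory factors, lie upstream of the SXY module, to which NLRC5 is recruited. The following sites, from the RefSeq promoter table on GRCm38.p6, were found by searching the 250 bases before each start on both strands for GGGNNTTCC and GAANNGAAA. Capitals mark the matches, and each sequence reads 5′ to 3′ on the strand of its gene.
H2-K1, chr17:34000429-34000458, minus strand: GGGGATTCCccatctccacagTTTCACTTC
H2-D1, chr17:35262923-35262952, plus strand: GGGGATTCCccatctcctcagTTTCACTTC
H2-Q4, chr17:35379444-35379472, plus strand: GGGATTTCCcatctccccagTTTCACTTC

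The H2-K1 and H2-D1 sites were identical at 29 of 30 bases. Among the other tested members, both motifs stood upstream of H2-M2, and GAANNGAAA alone upstream of H2-M3 and H2-Q10. Both also stood upstream of H2-Q6 and H2-Q7, which had no read in any library. Among all 32851 promoter windows, 6.31% held GAANNGAAA and 4.98% held GGGNNTTCC. The longer ISRE spelling, 2 copies of GAAA with any 2 bases between them, was in 2.98% of windows and was found upstream of B2m, H2-T23 and H2-T22. The 2 ISRE spellings overlapped in 0 member windows. The longer spelling is shown for the 2 of these genes that fell.
H2-T23, chr17:36032808-36032833, minus strand: cctactgcTTTCTCTTTCataaagac
B2m, chr2:122147540-122147565, plus strand: aagaacatGAAACTGAAAatgggaaa

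A TGACG (the core of an X2 box) followed after 15 to 25 bases by ATTGG (an inverted CCAAT, the core of a Y box) occurred in 0.381% of all windows and upstream of 4 tested members. Among untested members the pair also stood upstream of H2-Q7, without a read in any library, and H2-Aa, with 2 reads, both in parental libraries. The spacing differed there, and was 20 bases in each of the 4 tested members.
H2-K1, chr17:34000359-34000388, minus strand: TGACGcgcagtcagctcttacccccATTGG
H2-D1, chr17:35262993-35263022, plus strand: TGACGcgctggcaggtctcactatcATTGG
B2m, chr2:122147609-122147638, plus strand: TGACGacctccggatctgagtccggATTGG
H2-M3, chr17:37270188-37270217, plus strand: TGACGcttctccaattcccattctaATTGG

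H2-K1 and B2m passed the test, H2-D1 and H2-M3 did not. Each motif singly was common, with TGACG in 17.8% of all windows and CCAAT in 33.8%, so that a match describes the letters and not a bound site. The table matched 21 of the 33 tested members, among them all 8 that fell. No match to the 3 longer motifs or to the pair was found in the windows of Erap1, Tapbp, Psme2 or H2-Q2.

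The classical class I heavy chains are H2-K, H2-D and H2-L, which present peptides to CD8 T cells. H2-K1 (chromosome 17, 33996017 to 34000347) had 6290, 3998 and 4192 scaled read counts in BrM replicates 1, 2 and 3, against 11996, 10809 and 6825 in parental replicates 1, 2 and 3. A scaled read count is the authors' normalised count, on the scale of reads per library, and the groups did not overlap. The fall was 2.03-fold, with a log2 fold change of -1.02, an SE of 0.27 and an adjusted p of 0.0344 by limma. H2-D1 (chromosome 17, 35262730 to 35267499) had 8088, 3216 and 3253 in BrM and 9752, 8065 and 5886 in parental libraries. BrM replicate 1 lay within the parental range and the other two below it, and the log2 fold change of -0.82 did not pass (limma adjusted p = 0.173). Without BrM replicate 1 it passed, at -1.26 with an adjusted p of 0.00480 by limma. H2-L had only 11 reads in all BrM libraries and 10 in all parental ones. Its symbol had no match in the GENCODE M21 annotation, and the effect of the reference on its reads was not tested. Of the H2-K1 transcript windows of 50 bases, 9.63% also occurred in another gene, mainly H2-Q10 and H2-D1, and of those of H2-D1 12.8%, so reads of these paralogues may be split uncertainly. The reference is of a C57BL/6J mouse, and the effect of a different haplotype on counting was not tested.

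B2m (chromosome 2, 122147686 to 122153083), the light chain that every class I heavy chain needs to reach the surface, was the most abundant member per kilobase of exon, at 18851 in BrM and 35059 in parental cells. Its scaled read counts were 22672, 13284 and 12681 in BrM replicates 1 to 3, and 36222, 29292 and 24938 in parental replicates 1 to 3. All BrM values were below all parental ones. The fall was 1.91-fold, 16212 ± 5602 in BrM and 30151 ± 5691 in parental cells (SD, n = 3 libraries each), with a limma adjusted p of 0.0431. The log2 ratio of H2-K1 to B2m averaged -1.73 in BrM and -1.63 in parental cells, and that of H2-D1 to B2m -1.83 in BrM and -1.95 in parental cells. Both ratios overlapped between the groups. Summed over 32 class I heavy chain genes, BrM libraries held 21549, 12040 and 12200, against 36523, 33497 and 20845 in parental libraries. The 32 include H2-K2, H2-Bl, H2-Q5 and H2-T10, which GENCODE M21 annotates as pseudogenes. The highest BrM sum, in replicate 1, was above the lowest parental sum, in replicate 3, and the mean sum was 1.98-fold lower in BrM.

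The Qa and Tla regions downstream of H2-D1 encode further class I chains, most of them less polymorphic than the classical ones. H2-Q4, which encodes the non-classical class I protein Qb-1, had 2760, 2090 and 2081 in BrM and 7573, 7861 and 3481 in parental libraries. The lowest parental value, in replicate 3, was still above all BrM values, and the fall was 2.58-fold (log2 -1.37, SE 0.33, limma adjusted p = 0.0251). H2-T23 encodes Qa-1, which presents class I leader peptides to the NK receptor CD94/NKG2A. It had 1842, 946 and 927 in BrM and 3539, 3069 and 2272 in parental libraries, without overlap, and fell 2.48-fold (log2 -1.31, SE 0.31, limma adjusted p = 0.0240). H2-Q2 had 292, 419 and 443 in BrM and 650, 784 and 770 in parental libraries. It was the one heavy chain gene among the 8 with its lowest value in BrM replicate 1, and its log2 fold change was -0.95 (SE 0.22, limma adjusted p = 0.0220).

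With single libraries left out, these calls were not equally firm. Leaving out BrM replicate 2, BrM replicate 3, parental replicate 1 or parental replicate 2 ended the calls of H2-K1, H2-Q4 and H2-T23, with limma adjusted p-values of 0.106 to 0.119, 0.0793 to 0.0909 and 0.0781 to 0.0887. H2-Q2 lost its call without BrM replicate 2 or without any 1 parental replicate (adjusted p 0.0507 to 0.0857 by limma). H2-K1 and B2m also lost their calls with upper-quartile scaling and in limma without trend, and B2m with scaling to total reads and in edgeR. With single libraries left out, B2m kept its call without BrM replicate 1 only, at an adjusted p of 0.0636 to 0.138 in the other 5 limma fits. Shared 50-base windows made up 21.8% for H2-Q4, 16.1% for H2-Q2 and 13.6% for H2-T23.

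The other tested class I genes did not pass. H2-T24 alone among heavy chain genes was higher in BrM, with 117, 113 and 127 against 74.3, 72.5 and 54.8 in parental libraries. The groups did not overlap, and the log2 fold change of 0.83 missed the threshold (limma adjusted p = 0.0588). Without BrM replicate 1 it passed, with an adjusted p of 0.0391 by limma. H2-M3, which presents N-formylated bacterial peptides, had 749, 398 and 361 in BrM and 934, 890 and 504 in parental libraries, and BrM replicate 1 overlapped the parental range (log2 -0.65, limma adjusted p = 0.239). H2-K2, H2-Q5 and H2-Q10 had log2 fold changes of -0.94, -1.0 and -0.70, with limma adjusted p-values of 0.0980, 0.102 and 0.318. In GENCODE M21, H2-K2 is a transcribed unprocessed pseudogene, and H2-Q5, H2-Bl and H2-T10 are polymorphic pseudogenes. Without BrM replicate 1, H2-M3, H2-K2, H2-Q5 and H2-Q10 passed (adjusted p = 0.0347, 0.0489, 0.0265 and 0.0310 by limma), and H2-K2 also passed without parental replicate 3 (adjusted p = 0.0248). The weakly expressed H2-Bl, H2-M2, H2-Q1, H2-T10, H2-T22 and H2-T3 had log2 fold changes of -0.63 to -0.13 and adjusted p-values of 0.415 to 0.812 by limma. Of the 50-base windows of H2-Q5, H2-T10 and H2-T22, 36.4%, 32.9% and 34.5% were shared with another gene.

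The peptide transporter genes varied severalfold between libraries of a group and did not pass. Tap2 (chromosome 17, 34203527 to 34216321) had 1914, 633 and 601 in BrM and 3307, 5087 and 1417 in parental libraries. Tap1 (chromosome 17, 34187553 to 34197225) had 1291, 304 and 286 in BrM and 1072, 1469 and 449 in parental libraries. In both genes BrM replicate 1 was above at least 1 parental library, while BrM replicates 2 and 3 were below all 3. The log2 fold changes were -1.68 for Tap2 (limma adjusted p = 0.0868) and -0.88 for Tap1 (adjusted p = 0.389). Without BrM replicate 1 both passed, at -2.22 with an adjusted p of 0.0138 for Tap2 and -1.59 with 0.0368 for Tap1 by limma. Tap1 lies head to head with Psmb9. Their RefSeq starts at 34187556 and 34187330 on chromosome 17 leave 225 bases between them, and the GENCODE models of both genes overlap on opposite strands. Whether counting used strand is not given in the sources used here, so reads in that overlap are uncertain.

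The loading gene Tapbp and the trimming gene Erap1 kept their calls in more alternatives than the other members. Tapbp (chromosome 17, 33915899 to 33929292), or tapasin, bridges the transporter to the empty class I molecule. It had 7257, 5874 and 5784 in BrM and 14476, 15206 and 13468 in parental libraries. The 2 groups were well apart, with the highest BrM library far below the lowest parental one. The fall was 2.29-fold, with a log2 fold change of -1.20, an SE of 0.14 and a limma adjusted p of 0.00171. It stayed called in each of the 21 alternatives, with log2 fold changes of -1.30 to -0.92. Tapbp overlaps Zbtb22 on the same strand, and 2.87% of its 50-base windows were shared with another gene. Tapbpl, the tapasin-related editor TAPBPR, had 690, 1450 and 1389 in BrM and 1679, 1805 and 1538 in parental libraries. The groups did not overlap, but the log2 fold change of -0.58 did not pass (limma adjusted p = 0.198).

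Erap1 (chromosome 13, 74639568 to 74693201) trims peptide precursors in the endoplasmic reticulum; the mouse enzyme is also called ERAAP. It had 1317, 2671 and 2651 in BrM and 5295, 6664 and 5918 in parental libraries. Here BrM replicate 1 was the lowest library, unlike most members, and the groups did not overlap. The fall was 2.82-fold, with a log2 fold change of -1.49, an SE of 0.29 and a limma adjusted p of 0.0120. The call was lost only when parental replicate 2 was left out (adjusted p = 0.0546 by limma). On the opposite strand Erap1 overlaps Cast.

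The immunoproteasome subunits were lower in BrM on average but varied severalfold among libraries. Psmb8 (LMP7) had 2086, 591 and 506 in BrM and 3224, 5593 and 1322 in parental libraries. Psmb9 (LMP2) had 483, 230 and 245 in BrM and 657, 1448 and 359 in parental libraries. For both, BrM replicate 1 exceeded parental replicate 3. The log2 fold changes of -1.75 and -1.21 did not pass (limma adjusted p = 0.111 and 0.149). Psmb10 (MECL-1), on chromosome 8 and outside the MHC, had 907, 1645 and 1639 in BrM and 2597, 3746 and 2118 in parental libraries. It was lowest in BrM replicate 1, its groups did not overlap, and its log2 fold change of -1.02 just missed the threshold (limma adjusted p = 0.0521). Without BrM replicate 1, Psmb8 and Psmb10 passed (adjusted p = 0.0159 and 0.0441 by limma).

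Set against the constitutive subunit that each replaces, the inducible subunits had lower mean ratios in BrM. The log2 ratio of Psmb8 to Psmb5 was -0.37, -2.42 and -2.49 in BrM replicates 1 to 3 and -0.50, 0.53 and -1.47 in parental replicates 1 to 3. That of Psmb9 to Psmb6 was -3.60, -4.58 and -4.37 in BrM and -3.02, -1.88 and -3.70 in parental libraries. BrM replicate 1 lay within the parental range for both ratios. The log2 ratio of Psmb10 to Psmb7 was -2.78, -2.10 and -1.95 in BrM and -1.42, -1.17 and -1.86 in parental libraries, without overlap. Mean differences in log2 ratio, BrM minus parental, were -1.28, -1.32 and -0.79. These ratios are of read counts not divided by length, and an exact permutation test of 3 against 3 libraries cannot give a two-sided p under 0.1.

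**Figure D2:**
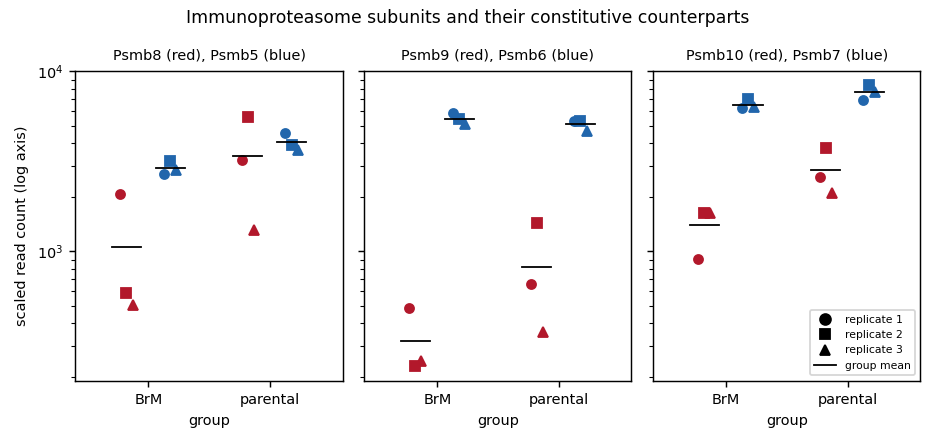
Scaled read counts (log axis) of the inducible proteasome subunits (red) and the constitutive subunits they replace (blue) in 3 BrM and 3 parental libraries, with a bar at each group mean. The blue points lie close together in both groups, whereas Psmb8 extends over 506 to 2086 in BrM and 1322 to 5593 in parental libraries.

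Psme1 and Psme2 encode the alpha and beta subunits of PA28, the interferon-inducible activator that opens the proteasome. Psme2 had 4824, 3675 and 3441 in BrM and 7315, 7869 and 5694 in parental libraries, with no overlap. It fell 1.75-fold (log2 -0.81, SE 0.19, limma adjusted p = 0.0223). The call did not hold without BrM replicate 2, BrM replicate 3, parental replicate 1 or parental replicate 2 (adjusted p 0.0791 to 0.0865 by limma). Of its 50-base windows 28.3% are shared, mainly with the copy Psme2b. Psme1 had 5809, 4905 and 4350 in BrM and 8920, 9806 and 5524 in parental libraries. BrM replicate 1 lay just above parental replicate 3, and the log2 fold change of -0.65 did not pass (limma adjusted p = 0.0918). It passed without BrM replicate 1 (adjusted p = 0.0485 by limma) and without parental replicate 3 (adjusted p = 0.0213). The log2 ratios of Psme1 and Psme2 to Psme3, the nuclear activator PA28 gamma, differed by -1.08 and -1.23 on average, BrM minus parental. For Psme1 the ratios overlapped, with BrM replicate 1 at 0.30 and parental replicate 3 at 0.012. For Psme2 they did not, but the same libraries were close, at 0.031 and 0.056. Psme3 itself had a log2 fold change of 0.42 and did not pass (limma adjusted p = 0.178).

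Nlrc5 (chromosome 8, 94434356 to 94527272), the class I transactivator, had the most negative fold change of the tested members. It had 103, 37.3 and 67.1 in BrM and 869, 529 and 115 in parental libraries. All BrM libraries were below all parental ones, but parental replicate 3 was close to BrM replicate 1. The log2 fold change of -2.54, a 5.83-fold lower level, had an SE of 0.79 and missed the threshold (limma adjusted p = 0.0540). It passed without BrM replicate 1 (log2 -2.88, adjusted p = 0.0331 by limma) and without parental replicate 3 (log2 -3.39, adjusted p = 0.0117), and in edgeR and DESeq2. Without parental replicate 1 the log2 fold change was -1.94 (adjusted p = 0.156 by limma). The gene overlaps 9330175E14Rik on the other strand. Ciita, the class II transactivator, was barely expressed, with 14.6, 9.56 and 13.0 in BrM and 32.6, 18.1 and 12.3 in parental libraries. Its groups overlapped, and the log2 fold change was -0.63 (limma adjusted p = 0.361).

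**Figure D3:**
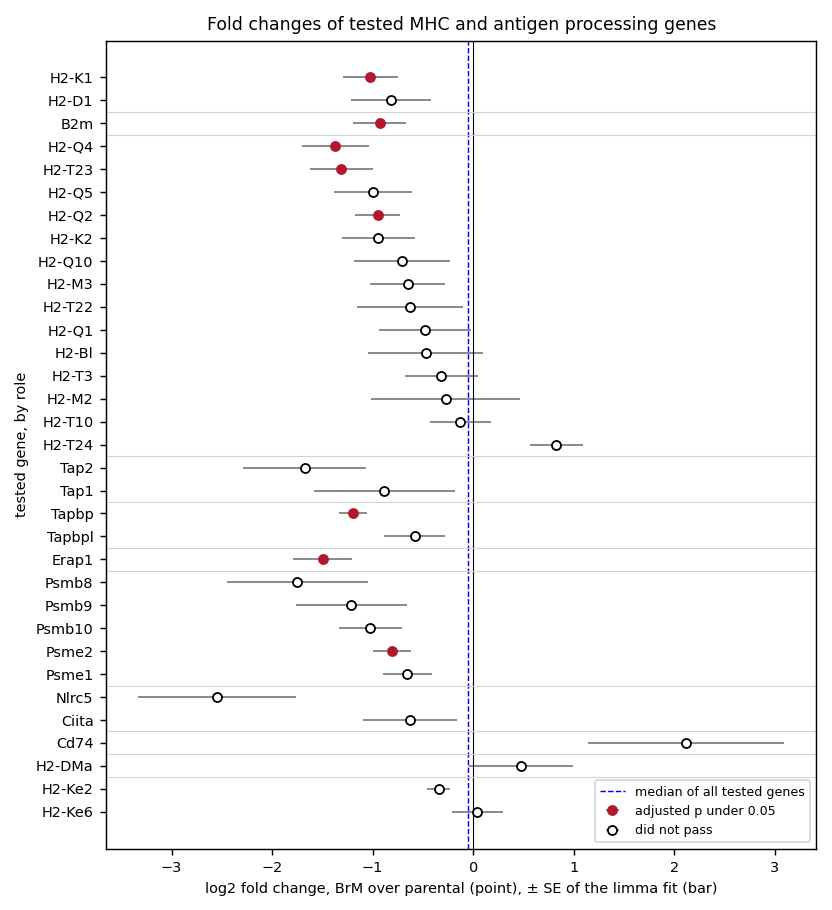
Log2 fold change of BrM over parental (point) with its SE from limma (bar) for each of the 33 tested members, in rows by role; filled points passed at an adjusted p under 0.05 and the dashed line is the median of all tested genes at -0.05. Of the 33 points 29 lie left of 0, and the widest bars belong to Nlrc5, Cd74, H2-M2, Tap1 and Psmb8.

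The class II chains themselves were nearly silent in both groups, apart from BrM replicate 1. The class II A and E chain genes had 44, 4 and 7 reads in all in BrM replicates 1 to 3, and 0, 4 and 0 in parental replicates 1 to 3. H2-Ab1, the beta chain of the A molecule, accounted for most, with 40, 4 and 6 reads in BrM and 0, 1 and 0 in parental libraries. The ratio of its pooled reads, scaled for depth, was 55.4-fold higher in BrM, with an exact 95% interval of 9.50 to 2231 that covers counting error only. Its mean of 9.84 was just under the filter of 10, where H2-T22 was just above it, so it was not tested with the filter in place. Cd74, the invariant chain that blocks the class II groove until the endosome, had 150, 14.3 and 22.4 in BrM and 11.2, 13.2 and 2.83 in parental libraries. BrM replicate 1 stood far above the rest, the groups did not overlap, and the log2 fold change of 2.12 had an SE of 0.98 (limma adjusted p = 0.154). It was 1.12 without BrM replicate 1, 2.77 without BrM replicate 2 and 1.52 without parental replicate 3, and passed in none of these fits. H2-DMa, a chain of the peptide exchange factor, had 586, 177 and 182 in BrM and 250, 197 and 143 in parental libraries. Only BrM replicate 1 was out of the parental range, and its log2 fold change was 0.47 (limma adjusted p = 0.534).

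**Figure D4:**
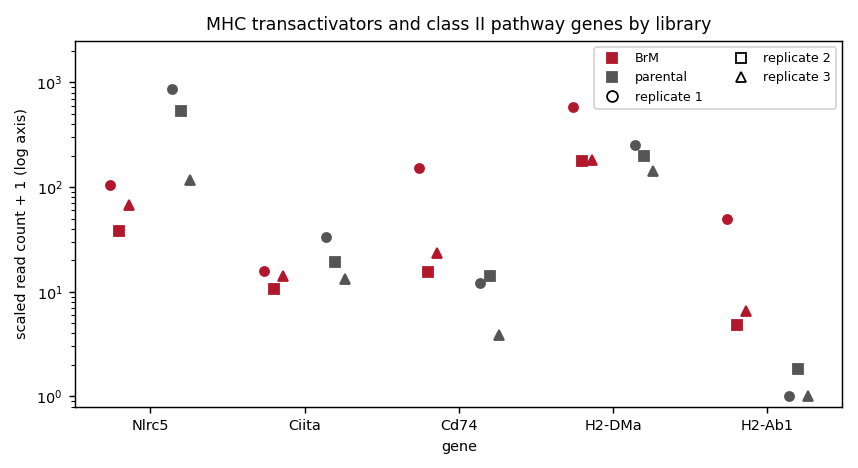
Scaled read count plus 1 (log axis) of Nlrc5, Ciita, Cd74, H2-DMa and H2-Ab1 in 3 BrM (red) and 3 parental (grey) libraries. Nlrc5 is lower in BrM, while BrM replicate 1 (circle) is the highest library for Cd74, H2-DMa and H2-Ab1.

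Markers of other cell types differed between libraries. The summed level of the myeloid list was 3049, 475 and 456 in BrM replicates 1 to 3 and 1008, 275 and 277 in parental replicates 1 to 3. Of its 4 tested genes 1 rose and 0 fell, and their median log2 fold change was -0.83. The gene that rose was Csf1r, the receptor for the macrophage growth factor CSF1, with 319, 254 and 230 in BrM and 2.04, 1.65 and 18.9 in parental libraries. The lysosomal glycoprotein gene Cd68 supplied most of the sum in BrM replicate 1, with 2670, against 209 and 211 in the other BrM libraries and 594, 221 and 195 in parental libraries. The other two tested genes had negative fold changes that did not pass. Aif1 had 42.7, 1.91 and 5.59 in BrM and 55.0, 41.2 and 50.0 in parental libraries (log2 -2.39, limma adjusted p = 0.112), and Lyz2 had 2.44, 0 and 0 in BrM and 353, 6.59 and 6.61 in parental libraries (log2 -4.18, limma adjusted p = 0.0935). BrM replicate 1 was highest for both the myeloid sum and the class II reads. Parental replicate 1 had the next highest myeloid sum and 0 class II chain reads. A link between the myeloid sum and the class II reads was not tested. C1qa and C1qb were at 0 in all libraries, and Ptprc, the pan-leukocyte marker CD45, was at 4.88, 1.91 and 4.66 in BrM and 0, 0 and 2.83 in parental libraries. The lymphoid list summed to 40.3, 14.3 and 22.4 in BrM and 16.3, 18.9 and 20.8 in parental libraries, with Ms4a1 and Nkg7 at 0 throughout. The fibroblast and pericyte list, with Lum at 0 throughout, summed to 997, 212 and 222 in BrM and 4392, 5896 and 1568 in parental libraries, and 3 of its 5 tested genes fell. Pdgfrb fell from 2765, 3683 and 1002 in parental libraries to 0, 0.956 and 3.73 in BrM. Dcn fell from 857, 374 and 232 to 0 in every BrM library, and Col1a2 from 17.3, 148 and 9.44 to 1.22, 0 and 0. Col1a1 and Pdgfra did not pass, with log2 fold changes of -1.13 and -0.93 (limma adjusted p = 0.522 and 0.332). The endothelial list summed to 54.9, 8.61 and 7.45 in BrM and 38.7, 29.7 and 27.4 in parental libraries, and its 1 tested gene did not pass. The brain list summed to 2610, 2238 and 2255 in BrM and 3007, 2958 and 2323 in parental libraries. Of its 5 tested genes, Gfap and Mbp rose, with log2 fold changes of 2.11 and 0.87, and Slc1a2 fell, with -5.08 (limma adjusted p = 0.00637, 0.00895 and 0.00247). Beside these marker counts, 15.8% of all tested genes were called lower and 12.2% higher. The part of the marker differences in the members' values was not tested. The single marker genes were named after their values were seen.

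The remaining H2- symbols add little. H2-Ke2 (also Pfdn6, a prefoldin subunit) and H2-Ke6 (also Hsd17b8, a steroid dehydrogenase) lie in the MHC but present no peptides, and had log2 fold changes of -0.34 and 0.04 (limma adjusted p = 0.0692 and 0.916). H2-Ke2 passed without BrM replicate 1 (adjusted p = 0.0344 by limma). The 25 untested members included 14 without a read in any library. Those were H2-Ea-ps, H2-Eb2, H2-M9, H2-M10.1, H2-M10.5, H2-M10.6, H2-M11, H2-Oa, H2-Ob, H2-Q6, H2-Q7, H2-Q8, H2-Q9 and H2-T9. Among them, H2-Q8, H2-Q9 and H2-T9 had no match in the GENCODE M21 annotation. Some of them have close copies, as H2-Q6 and H2-Q7 share 32.0% and 26.4% of their 50-base windows with another gene, and the part of read assignment in their values of 0 was not tested. The other untested members had at most 11 reads in either group, apart from H2-Ab1.

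Position on the chromosome was compared as well. Over all 697 tested genes of chromosome 17 the median log2 fold change was -0.29. Of these genes 18.4% were called lower, beside 15.8% of all tested genes and 27.0% to 27.8% on chromosomes 2, 13 and 14. The 24 tested members on chromosome 17, between 33915899 and 37483552, had a median of -0.76, and 5 fell, or 20.8%. The 105 other tested genes inside that span had a median of -0.16, and 11.4% of them were lower. The 568 tested genes outside it had a median of -0.30, with 19.5% lower. The members on chromosome 2 (B2m), 13 (Erap1) and 14 (Psme1 and Psme2) also sat on chromosomes with negative medians, of -0.41, -0.32 and -0.38. Those on chromosome 8 (Nlrc5 and Psmb10), 6 (Tapbpl), 16 (Ciita) and 18 (Cd74) sat on chromosomes with medians of 0.12, 0.03, 0.009 and 0.05. After each gene was centred on the median of its chromosome, 3 members were called lower, Tapbp, Erap1 and Psmb10, with 12.7% of all tested genes, and 1, H2-T24, was called higher, with 9.76%. Centring was chosen after seeing the data in earlier work on this table.

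Most genes that fold and load proteins in general were not called. Of 15 tested genes of the loading complex and the endoplasmic reticulum, 3 fell, 1 rose and 11 did not pass, with a median log2 fold change of -0.14. Over all tested genes, 15.8% were called lower and 12.2% higher. Pdia3, the oxidoreductase ERp57 of the loading complex, averaged 28466 ± 1724 in BrM and 45595 ± 5019 in parental cells (SD, n = 3 each; log2 -0.68, limma adjusted p = 0.0164). The chaperone gene Hspa5 (BiP) and Sec61a1, the translocation channel, fell, with log2 fold changes of -0.69 and -0.61 (limma adjusted p = 0.0252 and 0.0447), and the isomerase gene Pdia6 rose by 0.66 (adjusted p = 0.0317). Each of these 4 calls was lost in at least 4 of the 6 limma fits that left out 1 library, with adjusted p up to 0.0790 for Pdia3, 0.0899 for Hspa5, 0.119 for Sec61a1 and 0.115 for Pdia6. BrM replicates 2 and 3 and parental replicate 2 were among the libraries on which all 4 rested. Centred on its chromosome, 12, Pdia6 turned to -0.34.

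The constitutive proteasome stayed near the level of all genes. Of 18 tested genes 2 rose, 1 fell and 15 did not pass, beside 12.2% higher and 15.8% lower over all tested genes. The list had a median log2 fold change of -0.09. Psma6 and Psma3, both alpha ring subunits on chromosome 12, rose by 1.03 and 0.95 on the log2 scale (limma adjusted p = 0.00184 and 0.00262). The median log2 fold change of chromosome 12 was 0.99. Once centred, Psma3 turned to -0.053 and Psma6 dropped to 0.033 (limma adjusted p = 0.879), so neither stayed called. Psmb5 fell by 0.47 on the log2 scale (limma adjusted p = 0.0447), a call kept only without BrM replicate 1, and otherwise lost, with adjusted p of 0.0643 to 0.138, when any 1 library was left out.

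Most genes of interferon signalling and MHC regulation were not called, and the calls went in both directions. Of 24 tested genes 2 rose, 6 fell and 16 did not pass, with a median of -0.26. The shares over all tested genes were 12.2% higher and 15.8% lower. Jak2, the kinase of the interferon gamma receptor, had 8312, 8214 and 8489 in BrM and 2232, 2658 and 2767 in parental libraries. The libraries of each group lay close together, and the log2 fold change was 1.71 (SE 0.13, limma adjusted p = 0.000356). Stat3, Nfkb1 and Ifnar1, a chain of the type I interferon receptor, fell, with log2 fold changes of -1.48, -1.09 and -0.66 (limma adjusted p = 0.00735, 0.00917 and 0.00670). Both chains of the interferon gamma receptor were lower. Ifngr1 averaged 2404 ± 952 in BrM and 4443 ± 492 in parental cells, and Ifngr2 averaged 1938 ± 741 in BrM and 4577 ± 733 in parental cells (SD, n = 3 each; limma adjusted p = 0.0420 and 0.0159). Both calls were lost without BrM replicate 2, BrM replicate 3, parental replicate 1 or parental replicate 2, and that of Ifngr1 also without parental replicate 3, with adjusted p up to 0.138 for Ifngr1 and 0.0637 for Ifngr2 by limma. Irf1, a factor through which interferon gamma acts on class I genes, did not pass, with a log2 fold change of -0.06 (limma adjusted p = 0.862). Ifngr1, Ifngr2 and Irf1 were named after their values were seen.

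Of 11 tested genes of endosomal processing for class II, 7 fell and 4 did not pass, beside 15.8% lower over all tested genes. The list had a median log2 fold change of -1.05. The 4 with the smallest p-values were Sppl2a, the protease that clears the Cd74 stub, Cd9, a tetraspanin, and the lysosomal proteases Ctsd and Ctsb. Their log2 fold changes were -1.26, -1.05, -1.42 and -1.81 (limma adjusted p = 0.00371, 0.00737, 0.00957 and 0.0132). Ctsb lost its call without BrM replicate 2, at an adjusted p of 0.0507 by limma. Ctsd and Ctsb also degrade proteins in the lysosomes of cells without class II molecules.

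Class I-like genes outside the H2 names fell where they passed. Of 12 listed genes, 7 were tested, 4 fell and 3 did not pass, beside 15.8% lower over all tested genes. Cd1d1, which presents lipids to NKT cells, had 68.4, 39.2 and 59.6 in BrM and 485, 297 and 538 in parental libraries. Every BrM library was far below every parental one, and the log2 fold change was -2.95 (SE 0.35, limma adjusted p = 0.00190). Its neighbour Cd1d2 had 1 read in all in BrM and 101 in parental libraries, a ratio of 91.2 by depth, higher in parental cells, with an exact 95% interval of 16.0 to 3636 that covers counting error only. Hfe, which controls iron uptake, had 106, 64.1 and 64.3 in BrM and 286, 423 and 155 in parental libraries (log2 -1.79, limma adjusted p = 0.0246). Fcgrt, the heavy chain of the neonatal Fc receptor, had 69.6, 1.91 and 0 in BrM and 751, 516 and 212 in parental libraries (limma adjusted p = 0.0259). Both use beta-2 microglobulin as their light chain. Hfe lost its call without BrM replicate 2, BrM replicate 3, parental replicate 1 or parental replicate 2, and Fcgrt without each library but BrM replicate 1, with adjusted p up to 0.0856 and 0.0945 by limma.

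Of 8 tested checkpoint and costimulation genes, 2 fell and 6 did not pass, beside 15.8% lower over all tested genes. Cd47, the signal that restrains macrophages, averaged 2534 ± 1152 in BrM and 5657 ± 673 in parental cells (SD, n = 3 each; log2 -1.24, limma adjusted p = 0.0251). Cd40, a costimulatory receptor, had 29.3, 0 and 0 in BrM and 289, 124 and 39.7 in parental libraries (limma adjusted p = 0.0416). Both calls were lost without any 1 library other than BrM replicate 1, with adjusted p up to 0.0897 for Cd47 and 0.138 for Cd40 by limma.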

How the data were processed

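The authors deposited signal values, which are read counts they had normalised. The submitters' processing notes name STAR, HTSeq, GRCh38 and GRCm38; which tool scaled the counts, and whether counting used strand, is not given in the sources used here. Of the values above 0, 100% came out as whole reads (tolerance 0.01 read) when divided by the value of 1 read, and these reads went into the count tests. Columns numbered 3 match an unnumbered title and were placed by group only.

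BrM was compared with parental for the 13821 of 24062 genes whose mean over the 6 libraries reached 10, with limma 3.58.1 (R 4.3.3) on log2(value + 1), trended, two-sided, Benjamini-Hochberg adjusted, threshold 0.05. Fold changes are on that scale and understate those of low genes. Alternatives were other pseudocounts, filters, scalings and moderation, a replicate block, averaged or omitted libraries, edgeR 4.0.16 (TMM) and DESeq2 1.42.0; edgeR called 3753 genes, 3675 shared with the 3881 of limma, and DESeq2 5075, 3846 shared. Methods were tested on simulated data. Positions and lengths came from GENCODE M21 (GRCm38), matched for 94.4% of genes by symbol; shared windows are 50-base stretches of a gene's transcripts also present in another gene's. Promoters came from RefSeq; 40 members matched.

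The members and the gene lists were chosen with earlier results of these data known. Every member is reported. From each further list, up to 4 called genes with the smallest p-values were named, and markers by their sums; exceptions are stated. A result that needs an item withheld for evaluation is not reported here. Figures were drawn with matplotlib 3.10.9.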

Additional observations from a re-analysis of the deposited data

How the results depend on the processing

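The number of members called lower (8) became 13 with the replicate block (17% of all tested genes), 15 with DESeq2 (19.3%), 3 with each chromosome centred on its median (12.7%), and 2 with BrM replicates 2 and 3 averaged (9.62%), an alternative chosen after seeing the data that also took the genes changed to 2279, from 3881. Leaving out each library gave 1 to 20 members lower, 0 to 1 higher and 2190 to 6465 genes changed. In these fits 6.54% to 20.9% of all tested genes were called higher. The 1 member higher, H2-T24, came without BrM replicate 1, where that share was 20.9%. The number called higher (0) became 1 without the filter (H2-Ab1; 9.17% of all tested genes), 1 (H2-T24) with upper-quartile scaling (16.1%), scaling to total reads (14.4%), limma without trend (11.4%) and centring (9.76%), and 2 (H2-T24 and Cd74) with DESeq2 (17.4%). Members lower numbered 6 with upper-quartile scaling (13.2%) and without trend (14.3%), both losing H2-K1 and B2m, and 7 with total reads (14.2%), losing B2m. edgeR also called 8 lower (14.8%), 7 of them shared, losing B2m and gaining Nlrc5. Over all 21 alternatives, 594 of 686 member values kept their direction and their side of the threshold, 44 lost the call, 37 gained it and 11 changed direction, none of them called. Those were values of H2-T10 (0.00435 with upper-quartile scaling, 0.15 with centring, -0.36 to 0.035 over the fits with a library left out), H2-M2 (0.00223 with centring, -0.95 to 0.30 with a library left out), H2-Ke6 (-0.000496 with BrM replicates 1 and 2 averaged, -0.15 to 0.15 with a library left out) and H2-DMa (-0.095 to 0.77 with a library left out). Irf1 turned to 0.072 with upper-quartile scaling, 0.024 with total reads and 0.039 with BrM replicates 2 and 3 averaged, and was -0.26 to 0.065 with a library left out. Centring turned Pdia6 to -0.34 and Psma3 to -0.053, since the chromosome 12 median was subtracted; for the other changes the cause was not tested. The median log2 fold change of all genes was -0.05, 0.08 with upper-quartile scaling and 0.04 with total reads, which moved the split of calls to 2228 higher and 1819 lower and to 1985 and 1962, from 1691 and 2190.

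Whether the replicate numbers pair the samples is not known, and the number 3 comes from column names only. Deviations of same-numbered libraries correlated at 0.30, -0.09 and 0.33, and those of differently numbered libraries at -0.34 to 0.31. With 3 libraries in each group, these values cannot decide it. With the block 4040 genes changed, and it is given here for completeness. Depth limited the class II chain genes other than H2-Ab1, which had too few reads to compare.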
